A study of Mus musculus with 3 samples.

Results

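Histone genes fall into 2 kinds in these files, and both were described: 68 clustered genes, whose symbols begin with Hist1h to Hist4h, and 16 variant genes, whose symbols begin with H2af, H3f3 or H1f. Together they are 84 of the 24346 gene symbols listed, carried by 98 isoform entries, and they were chosen by symbol alone. The RNA came from the distal colon of wild-type mice 8 weeks of age, at steady state, with the strain given as JAX. All 3 labelled replicates form 1 group, polyadenylated RNA was sequenced, and there is no other condition to set them against. No label states whether the 3 replicates are different animals, and the names of their files share 1 lane and index and differ in a trailing number, so they may be pieces of 1 library. The tissue was taken whole, so every level is an average over its cell types.

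Histones are the proteins around which DNA is wound: H2A, H2B, H3 and H4 form the nucleosome core, and H1 binds the linker DNA. Clustered genes are transcribed mainly while DNA is replicated, lack introns in most cases, and give mRNAs that end just past a short stem-loop in place of a poly(A) tail. The stem-loop is bound by SLBP and the transcript is cut after it by a complex that includes the U7 small nuclear RNA. Variant genes lie outside the large clusters, give mostly polyadenylated mRNA, and supply histones outside S phase as well. In the deposited models 7 of the 16 variants are spliced, and H2afj lies 3816 bases from the clustered gene Hist4h4 on chromosome 6. A library made from polyadenylated RNA is known to under-represent transcripts that end at the stem-loop, so the levels below are levels of polyadenylated or carried-over mRNA and not of total histone mRNA.

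The stem-loop is shown first for the highest clustered gene of each class for which it was found, and for Hist3h2a, the next H2A gene. Each line gives 30 bases of the GENCODE M21 transcript (GRCm38), read 5′ to 3′ on the gene's strand, with the 16 bases of the loop and its stem in capitals.
Hist1h1c (chr13:23739505-23739534, + strand): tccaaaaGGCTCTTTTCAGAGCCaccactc
Hist2h2aa1 (chr3:96246025-96246054, + strand): ctaaaaaGGCTCTTTTCAGAGCCacccact
Hist3h2a (chr11:58955165-58955194, + strand): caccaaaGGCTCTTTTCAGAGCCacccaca
Hist1h2bg (chr13:23571836-23571865, + strand): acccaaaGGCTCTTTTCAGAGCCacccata
Hist2h3c2 (chr3:96238478-96238507, - strand): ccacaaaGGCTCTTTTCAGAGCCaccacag
Hist1h4i (chr13:22040959-22040988, - strand): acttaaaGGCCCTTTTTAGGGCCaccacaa

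The motif searched was this 16-base hairpin on the sense strand, opening with GG, closing with CC and holding TTT and then an A in its middle part, with 6 stem pairs required and G-T pairs allowed, in the first 100 bases after the stop codon. It was found in 44 of the 50 clustered genes that have at least 50 annotated bases after the stop, starting 21 to 58 bases after it. The other 18 clustered genes could not be judged: Hist3h2bb-ps has no matched coding transcript, and the rest have a shorter annotated 3′ region. The form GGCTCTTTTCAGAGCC was held by 26 genes, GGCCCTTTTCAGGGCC by 7 and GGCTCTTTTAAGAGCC by 6. Among all mouse coding transcripts with at least 100 bases after the stop, 32 of 40208 held the motif, a share of 0.0796%, and they belong to 29 genes, 26 of them members. Of the 13 variant genes with at least 50 annotated bases there, only H2afx, whose protein is phosphorylated at DNA breaks, held it, 46 bases after its stop.

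The deposited gene models end at this structure. In 41 of the 43 stem-loop genes whose deposited model spans the loop, the model stopped within 30 bases past it, with a median of 5 bases. GENCODE M21 extends the same genes by at least 100 bases past the loop in 22 of 44 cases, and 13 of the 44 have a poly(A) signal, AATAAA or ATTAAA, in the last 50 bases of an annotated transcript. Of all 68 clustered genes, 18 of them without 50 annotated bases after the stop, 17 have that signal at an annotated end of some transcript. So do 11 of 16 variant genes. Counted by transcript, 67.9% of coding transcripts with at least 100 bases after the stop hold it. Of the 5 clustered genes at 10 FPKM or more, 2 have it, and Hist1h2bc, Hist2h2aa1 and Hist1h2bg do not. The signal, in capitals, is shown for those 2 clustered genes, each set beyond the end of the deposited model. It is also shown for the 3 highest variant genes, with that of H3f3a also lying beyond the deposited model.
Hist1h1c (chr13:23740330-23740359, + strand): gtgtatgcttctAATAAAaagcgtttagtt
Hist3h2a (chr11:58956785-58956814, + strand): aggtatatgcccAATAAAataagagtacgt
H3f3a (chr1:180800836-180800865, - strand): aatttgaaaaatAATAAAagtaccaataga
H3f3b (chr11:116021987-116022016, - strand): ataggccttacaAATAAActagtaagtttg
H2afz (chr3:137866885-137866914, + strand): ctctgcttactaATTAAAcagtgcatctgt

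Levels are given in FPKM, fragments scaled to transcript length and to the mapped fragments of the file, summed over the isoforms of a symbol. The deposited 95% bounds placed the depth at 3780000, 3790000 and 1240000 mapped fragments in files 1, 2 and 3. A fragment was worth 0.829, 0.826 and 2.51 FPKM in these files for a model of 485 bases, the median of the clustered genes, and 0.225, 0.224 and 0.683 FPKM for one of 1342 bases, the median of the variants. Only 5 of 8771 genes tested differed between the files beyond sampling noise, so the files are counted as 1 sample and each SD over them is a measurement error. Colon epithelium genes marked the tissue, with Zg16 at 3151, Krt8 at 1682, Car4 at 817 and Epcam at 794 FPKM, and smooth muscle genes were also high, with Tagln at 754, Actg2 at 581, Acta2 at 554 and Des at 278 FPKM. Lymphoid genes were low, with Ptprc at 3.13, Cd3e at 2.65, Cd3g at 2.58 and Cd79b at 2.48 FPKM and Ms4a1 under 1 FPKM in every file.

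Clustered genes were mostly low. Of the 16 variants 8 averaged 10 FPKM or more, H2afy2 and H1fx lay among the low clustered genes, and 6 were at 0. In every file at least 1 FPKM was reached by 19 of 68 clustered genes (27.9%) and by 10 of 16 variants (62.5%), beside 48.5% of all symbols listed. The median level was 0.977 FPKM over clustered genes and 13.9 FPKM over variants, against 1.26 FPKM over all symbols. With members that have a near-identical copy left out, the order turned, with medians of 2.00 FPKM over 14 clustered genes and 0 FPKM over 6 variants. Of those variants only H2afv, at 29.7 FPKM, was above 0. A mean of 10 FPKM or more was found for 5 clustered genes and 8 variants. Summed over each kind, clustered genes held 394, 443 and 381 FPKM in files 1, 2 and 3 and variants 1073, 1057 and 1085 FPKM, so the ranges lay well apart. The clustered share of histone FPKM was 27.5% ± 1.84 (SD, n = 3 files). On the log2(FPKM + 1) scale the mean of clustered genes minus that of variants was -2.02. In bulk tissue fewer cells of a type and less RNA per cell cannot be told apart.

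**Figure D1:**
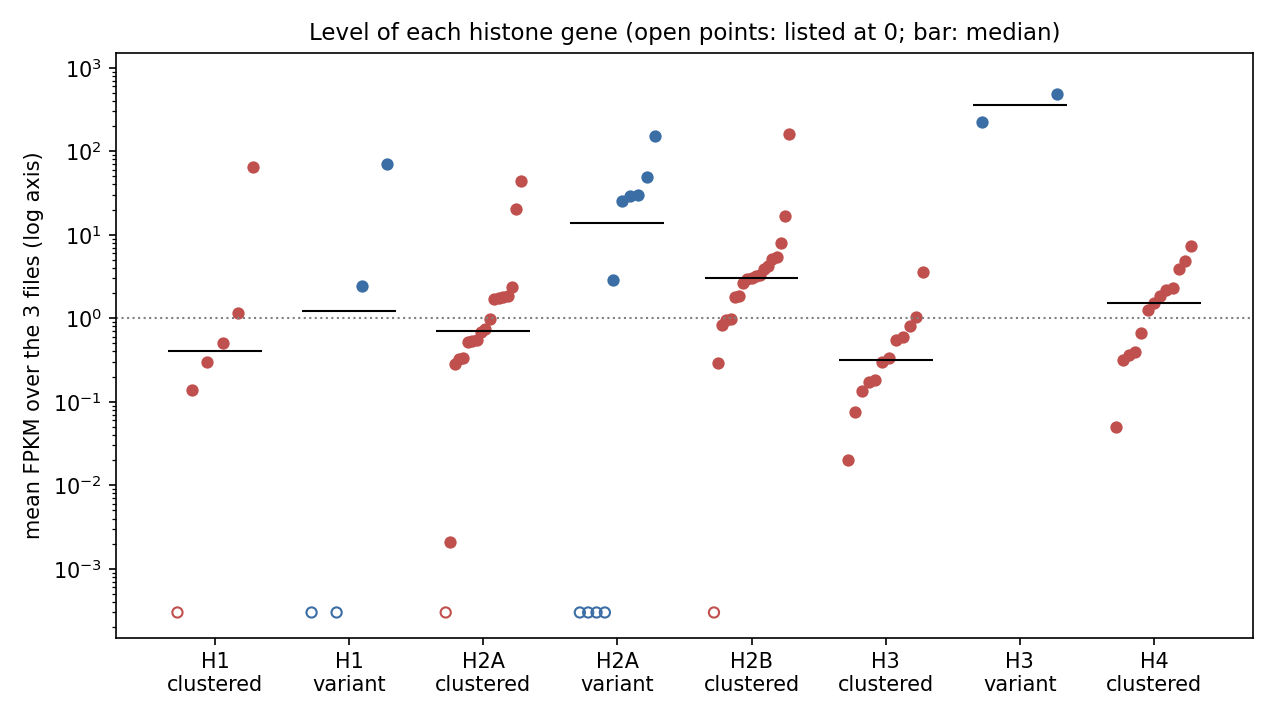
Mean FPKM over the 3 files of each of the 84 histone genes on a log axis, in columns by histone class with clustered genes (red) to the left of variants (blue). Open points are genes listed at 0, black bars are medians and the dotted line is 1 FPKM; the variant H3 pair stands above every clustered gene.

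A few clustered genes held most of that FPKM. Hist1h2bc, which codes for a canonical H2B, read 154, 173 and 153 FPKM in files 1, 2 and 3, a mean of 160.1 ± 11.1 (SD, n = 3 files). It made up 39.4% ± 0.63 of the clustered FPKM and was the third-highest histone gene, its range overlapping that of H2afz. Hist1h1c, a linker histone, read 64.8, 62.4 and 68.0 FPKM. These 2 genes together held 55.6% ± 2.44 of the clustered FPKM. The remaining 66 clustered genes summed to 181 ± 24.3 FPKM.

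**Figure D2:**
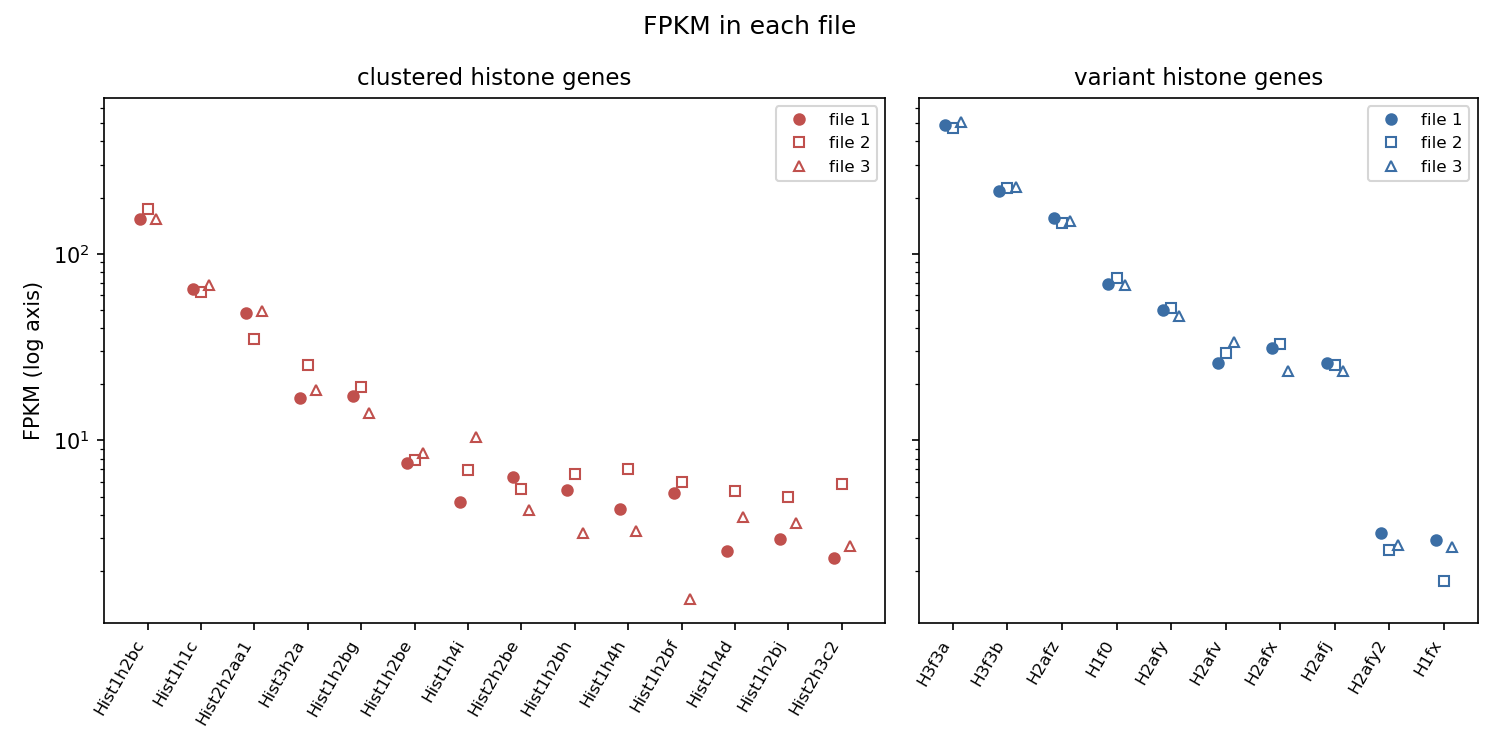
FPKM in each of the 3 files (log axis) for the 14 highest clustered genes (left, red) and the 10 variants above 0 (right, blue). Files 1, 2 and 3 lie close together for the highest genes, and spread more among clustered genes under 10 FPKM.

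Among linker histones, Hist1h1c and the variant H1f0, an H1 known to accumulate in cells that have stopped dividing, were nearly equal. H1f0 read 68.6, 74.4 and 67.7 FPKM, so its range overlapped that of Hist1h1c. Hist1h1c supplied 96.9% ± 2.12 of clustered H1 FPKM. Hist1h1e, the next clustered H1 gene, averaged 1.14 ± 0.63 FPKM, and Hist1h1t, the testis linker histone, stood at 0, which allows up to 0.598 FPKM (3 fragments over the files, counting error only). H1fx averaged 2.46 ± 0.62 FPKM. H1foo of oocytes and H1fnt of spermatids had 0 FPKM, and 3 fragments would have given 0.353 and 0.293 FPKM. Clustered genes supplied 48.0% ± 1.91 of all H1 FPKM.

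Among H2A genes, clustered members summed to 78.9 ± 3.80 FPKM and variants to 286 ± 6.75 FPKM, which put 21.6% ± 0.63 of the class with clustered genes (SD, n = 3 files). Of clustered H2A genes, Hist2h2aa1 read 48.4, 35 and 49.1 FPKM and Hist3h2a 16.9, 25.5 and 18.6 FPKM. The 2 deposited positions of Hist2h2aa1 on chromosome 3 have the same length and received nearly equal levels, and Hist2h2aa2, whose models overlap them, was left at 0.00212 FPKM, so the split between these symbols cannot be read. H2afz and H2afv code for the H2A.Z forms placed at promoters. H2afz read 156, 146 and 149 FPKM and H2afv 25.9, 29.4 and 33.8 FPKM, a ratio of 5.13 ± 0.82.

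Macro-H2A genes, whose proteins carry a large extra domain, differed in level as well. H2afy averaged 49.1 ± 2.68 FPKM and H2afy2 2.84 ± 0.31 FPKM, a ratio of 17.5 ± 2.21. The H2afy sum was steady but its 4 isoform models, 1950 to 1962 bases long, were not: 1 of them read 27.2, 11.1 and 11.3 FPKM in files 1, 2 and 3 and another 5.98, 18.3 and 24.6 FPKM. The 95% bounds of the first, 22.2 to 32.2 FPKM in file 1 and 7.57 to 14.6 FPKM in file 2, did not overlap. H2afx read 31.5, 33.0 and 23.5 FPKM, and H2afj, which codes for H2A.J, averaged 25.0 ± 1.21 FPKM, so the ranges of H2afv, H2afx and H2afj overlapped. H2afb1, H2afb2 and H2afb3, short H2A forms of the testis, and H2afy3 were listed at 0. The limits are 0.947, 1.87, 1.87 and 0.195 FPKM, in that order.

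The H2B class has no member among the variants by this rule and had the highest clustered sum of the 5 classes, 225 ± 19.8 FPKM. Hist1h2bc supplied 71.2% ± 1.66 of it. Hist1h2bg read 17.3, 19.2 and 14.1 FPKM, all above the range of Hist1h2be, which averaged 8.00 ± 0.48 FPKM. At least 1 FPKM in every file was reached by 11 of 19 clustered H2B genes (57.9%), beside 48.5% of all symbols. The counts were 3 of 18 clustered H2A, 1 of 12 clustered H3, 3 of 13 H4 and 1 of 6 clustered H1 genes. Hist1h2ba, a testis H2B named here after its values were seen, read 2.93, 5.05 and 0.936 FPKM on 8.36 fragments and has no near copy among annotated transcripts. It did not reach 1 FPKM in every file, and neither did any of 10 germ-cell genes, of which 5 were above 0. Sycp3 read 0.552, 1.38 and 0.839 FPKM and Dazl averaged 0.226 FPKM, while Prm1, Prm2 and Tnp1 were at 0. Hist2h2bb had 0 FPKM, and 3 fragments would have given 1.04 FPKM.

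Hist1h2bc was read from a spliced transcript. Its 728-base spliced model, spanning chr13:23684199-23692480, took all of the FPKM, and the intronless 469-base model that starts at the same base averaged 4.42e-05 FPKM. The upper 95% bounds of the intronless model were 1.73, 1.74 and 5.25 FPKM in files 1, 2 and 3, all far below the spliced model's lower bounds of 136, 153 and 123 FPKM. The GENCODE transcript of Hist1h2bc, with 742 bases after the stop, held no stem-loop in the window searched. It was the only coding transcript of this gene searched. The 3′ letters of the deposited intronless model could not be read, so whether that form holds a stem-loop was not tested. Hist1h2be read higher on its intronless 445-base model, with 7.16 ± 0.18 FPKM against 0.828 ± 0.40 FPKM on a spliced 2480-base model. These levels rest on 17.5 and 14.9 fragments over the files. The intronless lower 95% bounds were 1.51, 1.25 and 0 FPKM in files 1, 2 and 3. The spliced upper bounds were 0.907, 1.635 and 2.63 FPKM, so the bounds overlapped in files 2 and 3. Hist1h2bp, also with a spliced and an intronless model, had all of its 2.63 FPKM on the intronless one, from 7.15 fragments. Both genes have near-identical matches with Hist1h2bc. Hist1h2be and Hist1h2bp were named after their values were seen, as the clustered genes with both kinds of model.

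H3 was almost wholly variant. The 12 clustered H3 genes summed to 5.87, 14.2 and 3.55 FPKM in files 1, 2 and 3, or 1.10% ± 0.80 of the class. The highest, Hist2h3c2, averaged 3.63 ± 1.90 FPKM over 2 positions of equal length, and Hist2h3b averaged 1.05 ± 0.69 FPKM. Models of Hist2h3c1, left at 0.02 FPKM, overlap both positions of Hist2h3c2, so the split between these 2 symbols cannot be read. H3f3a and H3f3b code for the same protein, H3.3, which is deposited outside replication. H3f3a read 492, 469 and 509 FPKM in files 1, 2 and 3 and H3f3b 218, 224 and 227 FPKM, with no overlap and a ratio of 2.2 ± 0.09. Together they held 48.3% ± 1.98 of all histone FPKM.

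H4 has no variant gene under this rule, and its 13 genes summed to 22.6, 34.2 and 24.3 FPKM. This was 1.83% ± 0.40 of histone FPKM, the smallest of the 5 classes. Hist1h4i read 4.68, 6.91 and 10.4 FPKM and Hist1h4h 4.29, 7.07 and 3.28 FPKM, and their ranges overlapped. H3 and H4 enter the nucleosome in equal numbers. Summed H3 FPKM was 27.6 ± 6.0 times summed H4 FPKM, and summed H2A FPKM was 1.63 ± 0.11 times summed H2B FPKM. Among clustered genes alone the H3 sum was 0.273 ± 0.13 times the H4 sum, and the H2A sum was 0.351 ± 0.015 times the H2B sum.

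**Figure D3:**
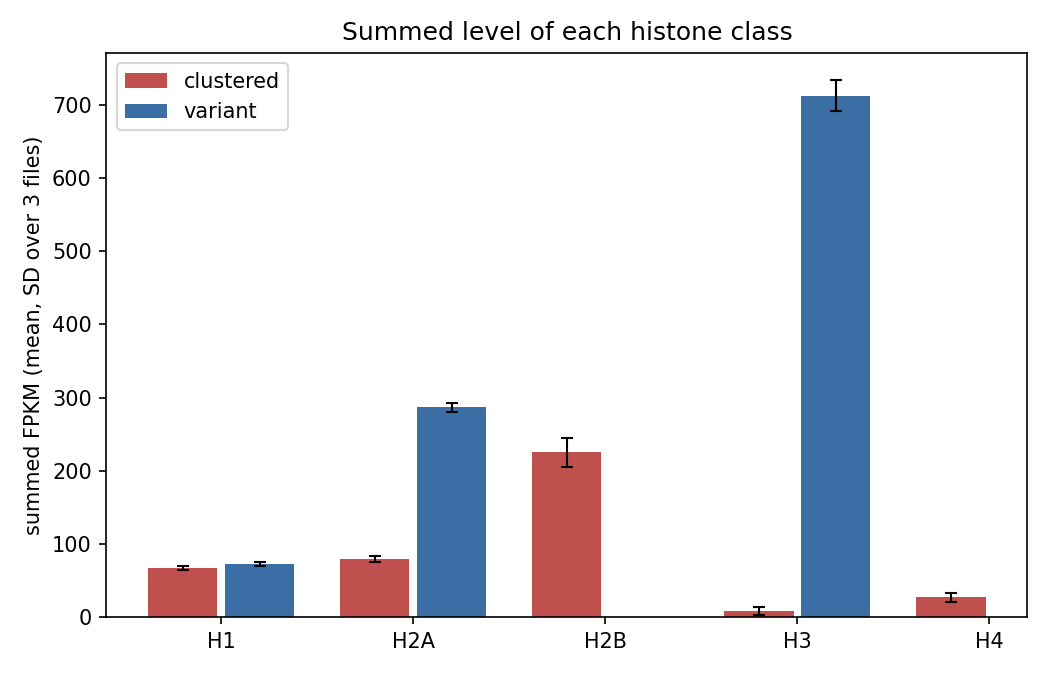
Summed FPKM of clustered (red, left) and variant (blue, right) genes of each histone class, as the mean with SD over the 3 files. Clustered H3 stands at 7.85 FPKM beside variant H3 at 713, clustered H2A at 78.9 beside variant H2A at 286, and clustered H2B at 225; H2B and H4 have no variant gene under the name rule.

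Depth limits what the low clustered genes show. Summed over the files, 4 of 68 clustered genes rest on at least 100 fragments, 11 on 10 to 100 and 53 on fewer than 10, whereas 8 of 16 variants rest on at least 100 fragments and 6 on none. Ordered by level, 25 of 31 neighbouring pairs of members from the highest to about 2 FPKM overlapped between files. The 6 steps without overlap were H3f3a above H3f3b, H3f3b above Hist1h2bc, H2afz above H1f0, Hist1h1c above H2afy, Hist2h2aa1 above H2afv and Hist1h2bg above Hist1h2be. No difference between files beyond sampling noise was detected in the members tested: 0 of 34 single-isoform members with a mean of at least 1 FPKM passed a chi-square test across all genes with Benjamini-Hochberg adjustment, beside 0.057% of all genes tested, and 0 had an unadjusted p under 0.05, beside 4.88%. The lowest p of the 34 was 0.165, for H3f3a. The median chi-square divided by its degrees of freedom was 0.368 over these members and 0.675 over all genes tested. Of the 34, 25 were clustered genes, many on few fragments, so differences between files could be missed in them.

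Sequence likeness also bears on single genes. A match over 100 bases or more, at 97% identity or above, with some other gene's transcript was found for 54 of 67 clustered genes searched, 46 of them with another member, and for 10 of 15 variants. Matches on either strand counted, and transcripts that overlap a member at the same place were not set aside. Some matches may thus be overlaps and not copies. Those of Hist3h2a included Trim17, and those of H2afy2 were Aifm2 and Pvt1, none of them histone genes. How reads with several matches were shared out is not stated in the sources used here, so single levels of these genes are uncertain. Hist1h2bc matched 12 members over up to 392 bases and H3f3a matched 17 other annotated genes over up to 644 bases, among them H3f3c. With all such genes left out, 14 clustered genes and 6 variants remained, among them Hist3h2bb-ps and H2afy3, which were not searched. The clustered share of the remaining FPKM was 76.3% in place of 27.5%, since H3f3a, H3f3b and H2afz are among those left out. Hist1h1c, Hist1h4i, Hist1h4h and H2afv had no such copy.

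Clustered genes lie in 4 groups, and Hist1 on chromosome 13 is the largest, with 54 genes and 328 ± 33.1 FPKM. Hist2 on chromosome 3 had 10 genes and 55.9 ± 4.96 FPKM, Hist3 on chromosome 11 had 3 genes and 22.4 ± 4.42 FPKM, and the single Hist4 gene, Hist4h4, averaged 0.319 ± 0.55 FPKM. Splitting Hist1 wherever genes lay more than 100000 bases apart gave 4 stretches. The stretch chr13:23531044-23764412 with 29 genes held 86.5% ± 1.88 of Hist1 FPKM, and both Hist1h2bc and Hist1h1c lie in it. Its median gene, at 0.738 FPKM, was below that of the stretch chr13:21715713-21837530, where 18 genes had a median of 1.12 FPKM and held 7.50% ± 2.45 of the sum. The 5 genes of chr13:22035122-22043658, Hist1h4i among them, had a median of 3.02 FPKM.

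**Figure D4:**
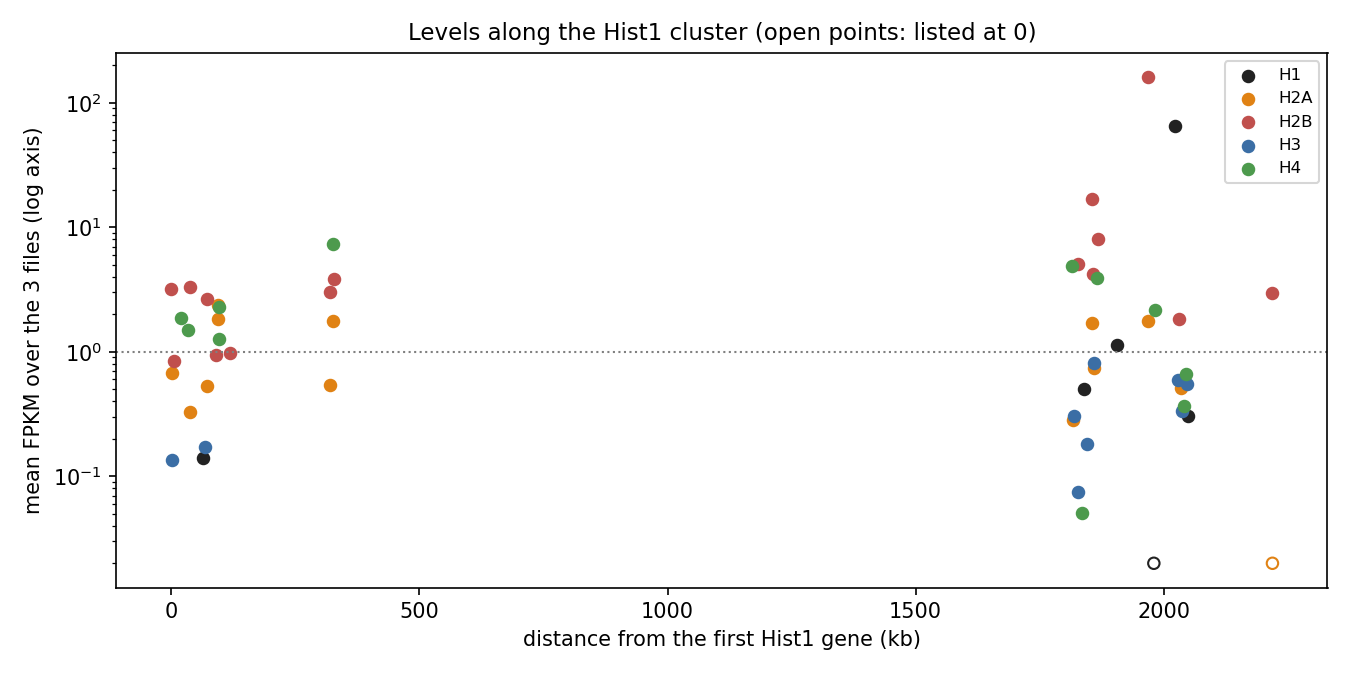
Mean FPKM over the 3 files (log axis) of the 54 Hist1 genes against distance from the first of them in kb, coloured by histone class, with open points listed at 0 and a dotted line at 1 FPKM. Hist1h2bc and Hist1h1c stand above all others, and most of their neighbours within the same stretch lie under 10 FPKM.

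Many H2A and H2B genes lie head to head on opposite strands with a shared stretch between their starts. Of clustered genes with 1 position and an annotated strand, 10 such pairs have starts 177 to 305 bases apart. The H2B gene was higher than its H2A partner in every file in 10 of 10 pairs, with ratios of means from 2.19 to 90.2 and a median of 5.57 over the 9 pairs whose H2A partner was above 0. In 9 of the 10 pairs the ranges over files did not overlap, Hist1h2bf with Hist1h2ad being the exception. Hist1h2bc read 154, 173 and 153 FPKM and its partner Hist1h2ac 1.41, 3.67 and 0.248 FPKM. Hist1h2bg read 17.3, 19.2 and 14.1 FPKM and its partner Hist1h2ae 0.401, 2.49 and 2.24 FPKM. The H2A partners rest on 6.27 fragments or fewer each, and the lowest H2B genes on about 7. The Hist2h2be model is 2618 bases long, against 468 for its partner Hist2h2ac. The number of other genes with a near copy was 12 for Hist1h2bc and 28 for its partner Hist1h2ac, and 8 for Hist1h2bg and 27 for its partner Hist1h2ae. In all 10 pairs this number was higher for the H2A gene, as with 9 for Hist1h2bk and 30 for Hist1h2ah, or 0 for Hist2h2be and 6 for Hist2h2ac. The part of these copies in the difference was not tested. Outside these 10 pairs the H2B gene was not always the higher. Hist3h2bb-ps, without a strand in the annotation, read 0, 0.881 and 0 FPKM, and its neighbour Hist3h2a 16.9, 25.5 and 18.6 FPKM. Hist1h2br averaged 0.944 FPKM, and Hist1h2ao and Hist1h2ap at the neighbouring position 1.18 and 0.92 FPKM. Hist1h2bq averaged 0.986 FPKM beside the other position of these 2 H2A genes. These neighbours were named after their values were seen.

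**Figure D5:**
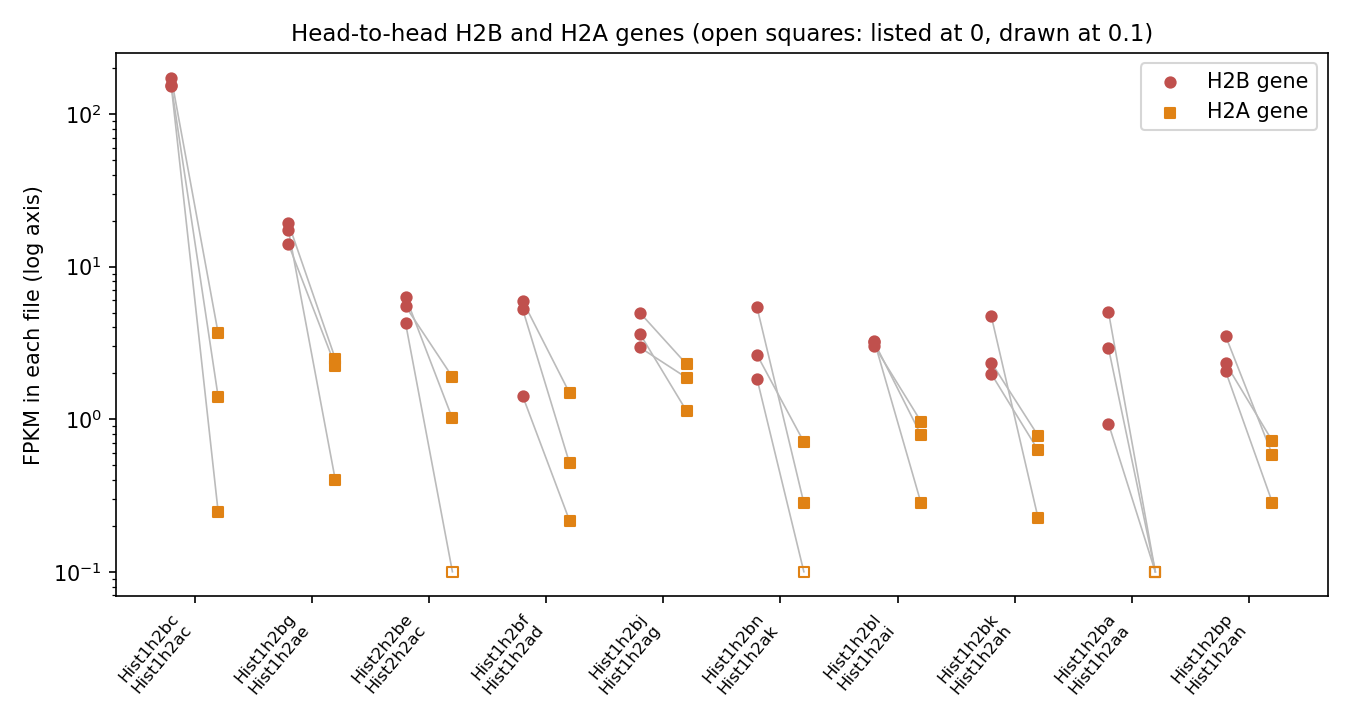
FPKM in each file (log axis) of the H2B gene (red circles, left) and the H2A gene (orange squares, right) of 10 head-to-head pairs, joined by file. Every line falls from H2B to H2A, with Hist1h2bc and Hist1h2ac farthest apart; open squares are values of 0 drawn at 0.1.

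The stretch between Hist1h2bg and Hist1h2ae is shown because it lies between the starts of both genes, and the 250 bases before Hist1h1c because that gene is the highest clustered H1. Both come from the RefSeq promoter table (GRCm38.p6), run 5′ to 3′ on the strand of the gene named, and stop at its start. Capitals mark 4 motifs on either strand. TATAAA is the core of the box that binds the TATA-binding protein. CCAAT is bound by the general promoter factor NF-Y, which acts in many promoters. The octamer ATGCAAAT is bound by Oct-1 and is well known from H2B promoters. AAACACA is a box known from H1 promoters.
Hist1h2bg (chr13:23571221-23571399, + strand): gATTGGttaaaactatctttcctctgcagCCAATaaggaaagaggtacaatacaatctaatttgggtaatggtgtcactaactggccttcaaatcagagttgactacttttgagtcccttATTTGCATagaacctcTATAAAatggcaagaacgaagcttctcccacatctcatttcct
Hist1h1c (chr13:23738557-23738806, + strand): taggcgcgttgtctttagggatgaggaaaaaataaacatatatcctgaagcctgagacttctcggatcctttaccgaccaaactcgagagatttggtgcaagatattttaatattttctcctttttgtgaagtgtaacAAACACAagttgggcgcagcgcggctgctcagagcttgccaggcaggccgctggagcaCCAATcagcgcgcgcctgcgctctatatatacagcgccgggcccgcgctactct

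Promoters, 250 bases before to 50 after the start, were matched for 76 of the 84 members. CCAAT on either strand was held by 53 of 62 clustered genes (85.5%) and 9 of 14 variants (64.3%), beside 41.1% of all genes in the table. It was held by every clustered H1, H2A, H2B and H3 gene matched but by 3 of 12 H4 genes (25%). TATAAA was held by 35 clustered genes (56.5%) and 1 variant (7.14%), beside 15.7% of all genes. The octamer was held by 14 clustered genes (22.6%), 7 of them H2A and 7 H2B, and by 1 variant, beside 1.97% of all genes. AAACACA was held by 5 of 6 clustered H1 genes, beside 8.22% of all genes. A match is a description of letters only.

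Genes that act on histone mRNA and protein were nearly all above 1 FPKM in every file, as 48.5% of all symbols were. Of 23 listed genes for the 3′ processing and turnover of histone mRNA, 21 had at least 1 FPKM in each file, and the median was 8.22 FPKM. Mif4gd, the SLBP partner in translation, averaged 33.5 FPKM, Lsm4 32.9, Slbp itself 21.7 ± 1.57 and Srrt 17.4 FPKM. Zfp473, the mouse counterpart of a U7 complex protein, and Ccne2 stayed under 1 FPKM in every file. All 26 histone chaperone and exchange genes passed 1 FPKM in every file, led by Npm1 at 287, Set at 69.3, Nap1l1 at 57.0 and Nap1l4 at 32.8 FPKM. All 20 S-phase and cell-cycle genes did so too, with a median of 9.98 FPKM, led by Pcna at 74.9, Ube2c at 46.5, Ccna2 at 27.6 and Top2a at 16.2 FPKM. Of histone genes outside the name rule, Cenpa, the centromeric H3, averaged 14.6 ± 1.15 FPKM, Hils1 0.126 FPKM and H2bfm was listed at 0.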

How the data were processed

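Levels of histone genes were read from 3 isoform tables, 1 per labelled replicate of mouse distal colon. FPKM values with lower and upper 95% bounds were deposited by the authors, per the file headers, as was the mean coverage of each isoform, a signal that was not used for levels. Per the submitters' processing notes, the tools were Cufflinks 2.2.1, TopHat2 2.1.1 and Bowtie2 2.3.4.3, in no stated order. The notes name the build GRCm39, while 68 of 98 member isoforms start at the base RefSeq gives on GRCm38.p6 and 87 lie within 1000 bases of it, so positions are given as GRCm38. Isoform FPKM was summed per symbol. Depth per file and the length taken off each model (about 166 bases) were recovered from the width of the 95% bounds. Files were compared by a chi-square test per gene over all single-isoform genes with a mean of at least 1 FPKM, tested on simulated data. The rule was met by 5 of 8771 genes, under 1%, so the 3 files count as 1 sample. Stem-loops, poly(A) signals and near copies were searched in GENCODE M21 transcripts, which matched 82 members, with BLAST+ 2.17.0 for the copies. Analyses used Python 3.11.15, pandas 2.3.3 and SciPy 1.17.1. The text names every variant, clustered genes of at least 10 FPKM, the 2 highest clustered genes of each class, and of other lists the 4 highest genes and up to 3 under 1 FPKM. The members and lists were chosen with earlier results of these data known. Promoters of H2afx, H2afy3, Hist1h2bc, Hist1h3a, Hist1h3f, Hist2h2be, Hist2h4 and Hist3h2bb-ps were not used here.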

Additional observations from a re-analysis of the deposited data

How the results depend on the processing

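The clustered genes stayed below the variants in median under every alternative except the removal of genes with a near copy. The count of clustered genes at the level threshold in every file was 30 at 0.5 FPKM, 6 at 5 FPKM, 30 as TPM, 5 of 14 without near-copy genes and 8 of 29 without isoforms under 500 bases. The variant count was 1 of 6 without near-copy genes, and that gene was H2afv. The clustered median was 2.29 as TPM and 2.00 FPKM without near-copy genes. The variant median was 32.6 as TPM, 13.1 FPKM from the highest isoform alone, 39.4 FPKM without genes at 0, 0 without near-copy genes and 27.2 FPKM without short isoforms. The clustered share of histone FPKM was 76.3% without near-copy genes, since that step removes H3f3a, H3f3b and H2afz, 23.0% without short isoforms, and 18.7% without Hist1h2bc, an alternative chosen after seeing the data. The log2 difference was -3.98 without genes at 0, -2.31 without short isoforms and -1.62 with a pseudocount of 0.01. It was not computed without near-copy genes, the step that turned the order of the medians. Leaving out 1 file at a time gave clustered counts of 20 to 27, a variant count of 10, clustered medians of 0.765 to 1.09 FPKM, variant medians of 13.6 to 14.3 FPKM, shares of 26.4% to 28.2%, log2 differences of -2.14 to -1.90, and 0 genes called between files. No paired analysis was possible because the samples form 1 group. Depth limits the clustered genes most: 53 of 68 rest on fewer than 10 fragments.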
